A study of Mus musculus with 8 samples.

Results

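Hepatocytes make most of the proteins that circulate in plasma, and 10 of their mRNAs were followed here in RNA from purified liver mitochondria. They encode albumin (Alb), transthyretin (Ttr), retinol binding protein (Rbp4), transferrin (Trf), haptoglobin (Hp), hemopexin (Hpx), fetuin-A (Ahsg) and the α, β and γ chains of fibrinogen (Fga, Fgb and Fgg). The genes were chosen by name. All transcripts of the count table whose Ensembl identifier belongs to one of them were summed per gene, which gave 15 of the 8688 transcripts and 10 of the 6450 nuclear genes that do not copy a mitochondrial gene. The libraries came from livers of WT C57BL/6N mice aged 12 weeks (12 W) or 65 weeks (65 W), with 4 biological replicates per age group and no treatment in either. The 12 W mice were female, the sex of the older mice was unstated, and whether each replicate was 1 animal was not given. Mitochondria were treated with the nuclease Benzonase to remove RNA outside them and were purified on a sucrose gradient. Poly(A) RNA was then reverse-transcribed, barcoded by PCR and sequenced together on a Nanopore flow cell.

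Plasma proteins are made on ribosomes bound to the endoplasmic reticulum and leave the cell through the secretory pathway. Their genes are nuclear, and their proteins have no known task inside mitochondria. The carriers keep poorly soluble or reactive ligands in solution, among them fatty acids on albumin, thyroxine and retinol on the transthyretin complex, and iron on transferrin. Haptoglobin and hemopexin take up haemoglobin and haem released from red cells. Fibrinogen is a dimer of 3 chains that are made from 3 genes and are joined in equal numbers before secretion. In the acute phase of inflammation the liver raises haptoglobin, hemopexin and fibrinogen and lowers albumin and transthyretin.

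The libraries held 104554 to 191092 counts at 12 W and 12630 to 105252 at 65 W. Nuclear transcripts other than copies of mitochondrial genes took 7618 to 20680 counts at 12 W and 1523 to 11098 at 65 W, and these were the reference to which each gene was related ("counts per 1000 nuclear counts"). The libraries 65W-1 and 65W-3 had the fewest, with 1523 and 3260. Lars2, a mitochondrial leucyl-tRNA synthetase gene, took 12.7 to 24.4% of the nuclear counts at 12 W and 11.3 to 36.7% at 65 W, so group means without Lars2 in the reference are given beside those with it. Transcripts that match a mitochondrial gene over less than 50% of their length stayed in the reference. Whether the counts of Lars2 come from such a match, rather than from its own mRNA, was not tested. Of 16 hepatocyte markers that are not plasma proteins, all 16 had a row, with 6.69 to 9.09 counts per 1000 nuclear counts in the 12 W and 5.91 to 10.8 in the 65 W libraries. Markers of other cells were sparse. Macrophage markers (9 of 10 listed) had 1.24 to 2.08 at 12 W and 1.31 to 3.68 at 65 W, endothelial markers (7 of 8) at most 0.551 and 0.451, stellate cell markers (9 of 9) at most 0.532 and 1.23, lymphocyte markers (5 of 10) at most 1.26 and 0.657, erythroid markers (4 of 6) at most 2.82 and 0.451, and cholangiocyte markers (2 of 5) at most 0.0612 and 0.0901. Adipocyte markers had no row. Their part in the results below was not tested.

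The coding ends of the fibrinogen transcripts are shown first, because 2 of the 3 chains were counted on alternative transcripts that differ there. The genes lie side by side on chromosome 3 of GRCm38, within 42140 bp at chr3:83007724-83049863. Fgg (ENSMUSG00000033860.13, chr3:83007724-83015049) and Fga (ENSMUSG00000028001.16, chr3:83026076-83033627) are on the plus strand, and Fgb (ENSMUSG00000033831.5, chr3:83040141-83049863) is on the minus strand. Fgg-201 and Fgg-202 share 1296 coding bases. Fgg-201 is then spliced to its last exon, where 15 coding bases at chr3:83014835-83014849 end the frame, whereas Fgg-202 reads on into the intron for 36 coding bases at chr3:83014308-83014343. Reading on at this splice site is how the longer γ′ form of the γ chain arises. Fga-201 and Fga-202 share 1660 coding bases, after which Fga-201 has 14 more at chr3:83031980-83031993 and Fga-202 has 710 more from a further exon at chr3:83032701-83033410, which gives the extended αE form of the α chain. In the sequences, taken from the GENCODE M21 transcripts on GRCm38 and read 5′ to 3′, the last 30 shared bases are in lower case and the bases that differ are in capitals. Each runs to the stop codon except Fga-202, of which the first 60 differing bases are printed.
Fgg-201: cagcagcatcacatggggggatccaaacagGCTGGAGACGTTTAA
Fgg-202: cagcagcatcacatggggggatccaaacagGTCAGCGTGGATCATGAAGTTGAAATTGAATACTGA
Fga-201: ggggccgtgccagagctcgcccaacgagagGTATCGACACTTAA
Fga-202: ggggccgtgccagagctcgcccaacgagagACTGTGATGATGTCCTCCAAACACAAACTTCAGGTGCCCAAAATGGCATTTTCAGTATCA

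All 10 genes were counted in every library, and together they held 13274 counts, which was 15.9% of the 83595 nuclear counts. Of the 10, 9 were among the 30 most counted nuclear genes, and Hp was at rank 38. The sum of the 10 was 166, 164, 186 and 145 counts per 1000 nuclear counts in 12W-1 to 12W-4 and 128, 133, 113 and 159 in 65W-1 to 65W-4. The means of the age groups were 165 ± 16.8 and 134 ± 19.1 (SD, n = 4 each), so that 65 W stood at 0.807 times 12 W. The groups overlapped, since 65W-4 lay above 12W-4. With Lars2 left out of the reference the means were 200.2 ± 22.6 and 176 ± 23.2 (SD, n = 4 each). Within the sum, albumin made up 59.3% ± 2.41 of the counts at 12 W and 59.97% ± 3.41 at 65 W (SD, n = 4 each). The ratio of 0.807 for the sum depended on the reference. It was 0.880 without Lars2, 0.869 per all counts and 0.904 with copies of mitochondrial genes included. Fewer hepatocytes, less of an mRNA per cell and less cytoplasm carried along with the mitochondria cannot be told apart in these values. Nor can a rise of other counts in the reference be told apart from these.

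To compare the age groups gene by gene, edgeR's quasi-likelihood test was fitted to all nuclear genes with enough counts, after scaling with TMM (trimmed mean of M-values), which sets the libraries level over the bulk of the genes. Of the 6450 genes, 99 were kept, among them the 10 plasma protein genes. Over these 99 genes, 9 had an adjusted p under 0.05, which is 9.09%, 7 of them (7.07%) higher and 2 (2.02%) lower at 65 W. Of the 10 plasma protein genes, 0 passed in edgeR, and 0 had an unadjusted p under 0.05, against 18.2% of the 99 genes. DESeq2 and limma-voom also called 0 of the 10, against 11.2% of the 89 genes with an adjusted p in DESeq2 and 10.1% of 99 in limma-voom. At an unadjusted p under 0.05 they had 1 (Trf) and 0 of the 10, against 19.2% and 21.2% of the 99 genes. The log2 fold changes of the 10 ran from -0.28 (Trf and Hp) to 0.35 (Ahsg) with a median of -0.01, against a median of 0.04 over the 99 genes. Their standard errors were 0.16 to 0.29, and their adjusted p-values from edgeR were 0.400 to 0.989. The direction of several genes depended on the scaling. With the nuclear counts alone as library size, the median over the 99 genes was -0.18 and that over the 10 was -0.25. On this scale 9 of the 10 lay below 0, all but Ahsg. So did most of the 99 genes, as their median shows. With TMM 5 of the 10 lay below 0, against 44.4% of the 99 genes.

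**Figure D1:**
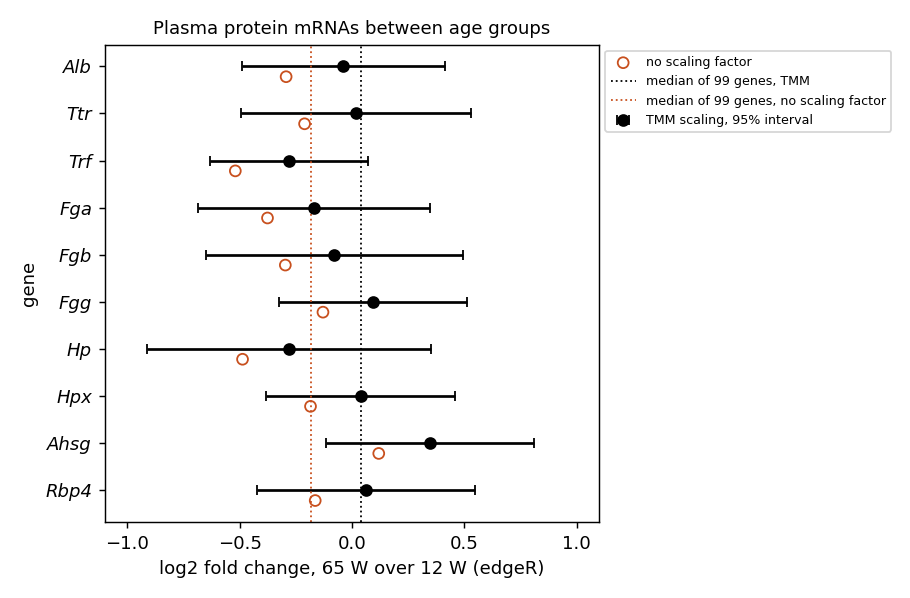
Log2 fold change (65 W over 12 W, x axis) of the 10 plasma protein mRNAs (y axis), with TMM scaling (filled, bars are the 95% interval) and without a scaling factor (open), and the medians of all 99 genes under each as dotted lines. All 10 intervals include 0, and the open symbols lie to the left of the filled ones.

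**Figure D2:**
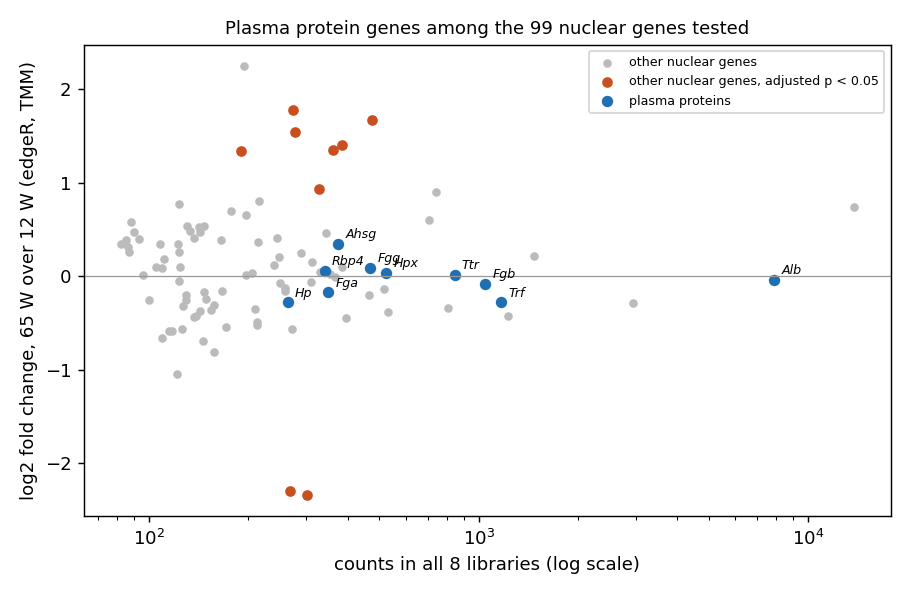
Log2 fold change (65 W over 12 W, edgeR with TMM, y axis) against the counts in all 8 libraries (x axis, log scale) for the 99 nuclear genes tested. The 10 plasma protein genes (blue) lie between -0.28 and 0.35, while the 9 genes with an adjusted p under 0.05 (orange) lie at or beyond -2.30 and 0.93.

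Albumin, the most abundant plasma protein and a carrier of fatty acids, hormones and drugs, had the most counts of the 10. Alb (ENSMUSG00000029368.10, chr5:90460897-90476602, plus strand) held 7893 counts, second to Lars2 among nuclear genes, and all of them lay on the transcript Alb-201. It had 103, 93.5, 113 and 83.6 counts per 1000 nuclear counts in the 12 W group, from 12W-1 to 12W-4. In 65W-1 to 65W-4 it had 80.8, 83.7, 64.4 and 91.3. The groups overlapped, and 12W-4 lay within the range of the 65 W libraries while 65W-3 was the lowest of all. The means were 98.2 ± 12.6 at 12 W and 80.03 ± 11.3 at 65 W (SD, n = 4 each), or 119 ± 15.1 and 106 ± 18.7 without Lars2 in the reference. The log2 fold change with TMM was -0.04 (standard error, SE, 0.21, adjusted p = 0.945, edgeR). Its 95% interval corresponds to a level at 65 W of 0.712 to 1.33 times that at 12 W.

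Transthyretin and retinol binding protein travel in plasma as a complex, which carries retinol and thyroxine. Ttr (ENSMUSG00000061808.4, on chromosome 18) is annotated with 1 transcript, Ttr-201. It had 11.8, 7.35, 12.8 and 8.46 counts per 1000 nuclear counts at 12 W and 11.2, 6.86, 5.83 and 11.4 at 65 W, in the order of the replicates. Its high and low libraries were thus found in both groups, whose means were 10.1 ± 2.62 and 8.82 ± 2.90 (SD, n = 4 each), or 12.1 ± 2.77 and 11.8 ± 4.51 without Lars2. Rbp4 (ENSMUSG00000024990.13, chr19:38116629-38125281, minus strand) had 4.41, 3.68, 5.07 and 3.48 at 12 W and 2.63, 2.94, 4.91 and 4.05 at 65 W. Rbp4 overlapped between the age groups as well, with 65W-3 near the top of the 12 W range. Its means were 4.16 ± 0.726 and 3.63 ± 1.05 (SD, n = 4 each), or 5.02 ± 0.770 and 4.73 ± 1.08 without Lars2. The log2 fold changes were 0.02 for Ttr (SE 0.24, adjusted p = 0.989, edgeR) and 0.06 for Rbp4 (SE 0.22, adjusted p = 0.925, edgeR). Of the 341 counts of Rbp4, all but 3 lay on 1 transcript of 937 nt. For every Rbp4 count there were 2.67, 2.00, 2.53 and 2.43 Ttr counts at 12 W and 4.25, 2.33, 1.19 and 2.82 at 65 W. Both the lowest and the highest ratio belonged to the libraries with the fewest counts, 65W-3 with 16 counts of Rbp4 and 65W-1 with 4. The mean log2 ratio differed by -0.03 between the groups (two-sided exact permutation test, p = 0.943).

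Transferrin, the iron carrier of plasma, was the only one of the 10 whose groups did not overlap. Trf (ENSMUSG00000032554.15, chr9:103204001-103230444, minus strand) had 14.3, 13, 16.9 and 15.2 counts per 1000 nuclear counts in 12W-1 to 12W-4 and 8.54, 9.31, 12.0 and 11.2 in 65W-1 to 65W-4. The means were 14.9 ± 1.64 and 10.2 ± 1.59 (SD, n = 4 each), and the lowest 12 W library lay above the highest 65 W library. Of all 99 genes, 9 were lower at 65 W with no overlap, which is also 9.09%, so that 1 of 10 is near the background. Without Lars2 in the reference Trf had 17.9 ± 0.992 at 12 W and 13.4 ± 1.36 at 65 W (SD, n = 4 each), again with no overlap. After TMM scaling the values did overlap, with 13.5 ± 0.715 and 11.2 ± 1.41 (SD, n = 4 each), since 65W-3 with 13.2 then lay above 12W-2 with 12.8. The log2 fold change with TMM was -0.28 (SE 0.16, adjusted p = 0.400, edgeR), and the 95% interval ran from 0.646 to 1.05 times the 12 W level. All 1167 counts lay on Trf-201, 1 of 9 annotated transcripts.

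Haptoglobin and hemopexin are the scavengers of free haemoglobin and free haem. Hp (ENSMUSG00000031722.10, chr8:109575128-109579172, minus strand) was the least counted of the 10, with 58, 22, 42 and 86 counts at 12 W and 1, 13, 8 and 33 at 65 W. This was 3.55, 2.89, 2.48 and 4.16 counts per 1000 nuclear counts at 12 W and 0.657, 2.12, 2.45 and 2.97 at 65 W. The single count in 65W-1 has a 95% Wilson interval of 0.116 to 3.71 counts per 1000, which takes in 6 of the other 7 libraries. The means of Hp were 3.27 ± 0.741 and 2.05 ± 0.994 (SD, n = 4 each), or 3.95 ± 0.843 and 2.59 ± 1.06 without Lars2. Hpx (ENSMUSG00000030895.9, chr7:105591613-105600137, minus strand) had 6.19, 7.09, 7.66 and 5.27 at 12 W and 5.91, 4.74, 5.21 and 6.85 at 65 W, with values of both groups interleaved. Hpx averaged 6.55 ± 1.05 and 5.68 ± 0.916 (SD, n = 4 each), or 7.95 ± 1.46 and 7.51 ± 1.36 without Lars2. The log2 fold changes were -0.28 for Hp (SE 0.29, adjusted p = 0.661, edgeR) and 0.04 for Hpx (SE 0.19, adjusted p = 0.945, edgeR). The ratio of Hp to Hpx counts ran 0.574, 0.407, 0.323 and 0.789 for 12W-1 to 12W-4 and 0.111, 0.448, 0.471 and 0.434 at 65 W. It overlapped between the groups, with a difference of the mean log2 ratio of -0.50 (two-sided exact permutation test, p = 0.400), which became -0.11 without 65W-1. Both members of the pair were counted on 1 transcript each, Hp-201 and Hpx-201.

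Fetuin-A binds calcium phosphate in plasma. Ahsg (ENSMUSG00000022868.6, chr16:22891277-22899449, plus strand) had 3.92, 3.81, 5.78 and 3.63 counts per 1000 nuclear counts at 12 W and 3.94, 4.74, 3.37 and 5.68 at 65 W. Library 12W-3 stood above the other 12 W libraries, and 65W-4 was near it. The mean was 4.28 ± 1.00 at 12 W and 4.43 ± 1.00 at 65 W (SD, n = 4 each), or 5.16 ± 1.04 and 5.81 ± 0.988 without Lars2. The log2 fold change was 0.35 (SE 0.21, adjusted p = 0.451, edgeR), the highest of the 10. Of the 10 genes it had the highest share of counts outside its most counted transcript. Ahsg-201 (1484 nt, 7 exons) held 248 of the 375 counts, Ahsg-208 (559 nt, 4 exons) 121 and Ahsg-202 6. All 559 bases of Ahsg-208 lie in exons of Ahsg-201, of which it lacks the first 2, the sixth and the front part of the last. Ahsg-208 took 42.2, 37.9, 18.4 and 33.3% of the Ahsg counts at 12 W and 0, 72.4, 72.7 and 17.5% at 65 W, where the 0 was of 6 counts (95% Wilson interval up to 39.0%). The value of 65W-2, 21 of 29 counts (95% Wilson interval 54.3 to 85.3%), lay apart from that of 65W-4, 11 of 63 counts (10.04 to 28.6%), within the same age group. Library 65W-2 also held all 6 counts of Ahsg-202. In a fit of transcripts in place of summed genes, Ahsg-201 had a log2 fold change of -0.12 (SE 0.56).

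**Figure D3:**
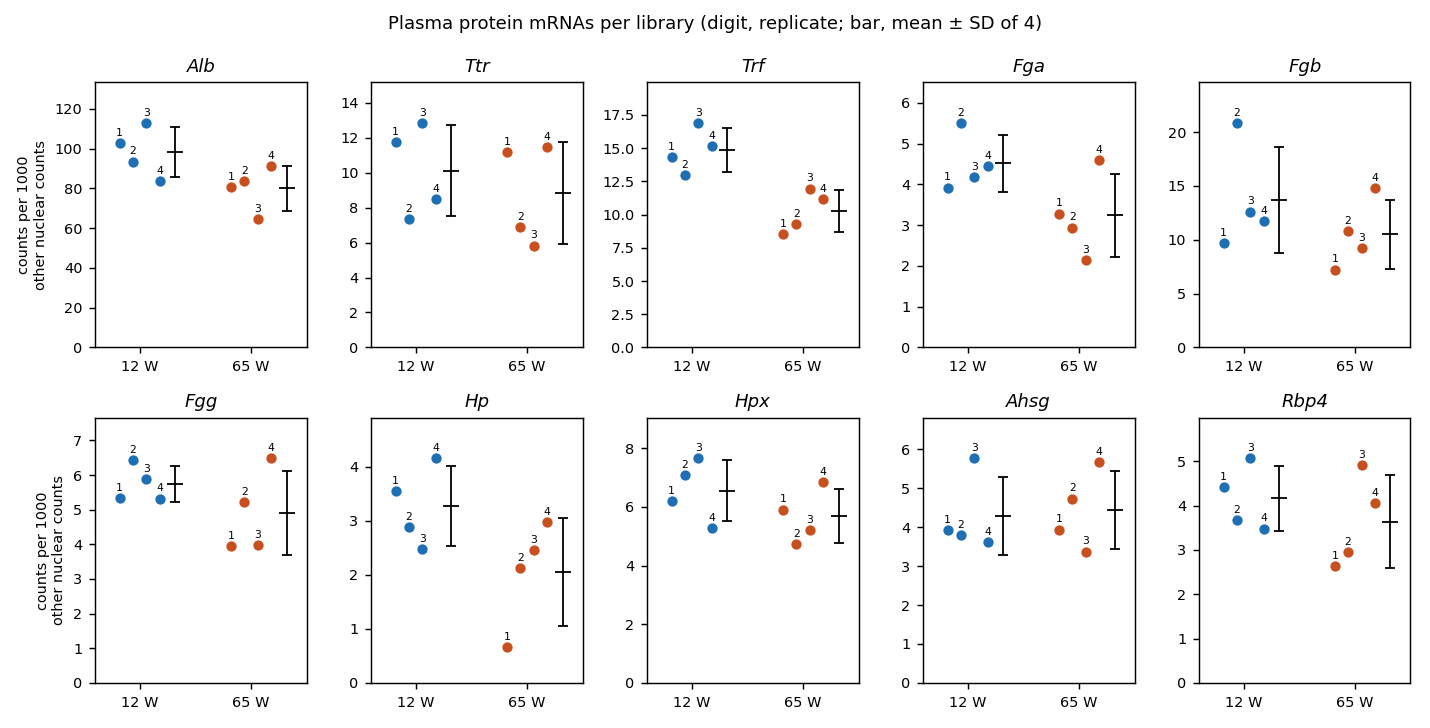
Counts per 1000 nuclear counts (y axis, from 0) of the 10 plasma protein mRNAs in the 12 W (blue) and 65 W (orange) libraries, with the replicate number at each point and the mean ± SD of 4 libraries beside them. Only for Trf do the groups not overlap.

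The fibrinogen chains held 1864 counts, of which Fgb had 1045, Fgg 469 and Fga 350. Fgb had 9.68, 20.9, 12.6 and 11.8 counts per 1000 nuclear counts at 12 W and 7.22, 10.8, 9.20 and 14.8 at 65 W. Library 12W-2 was far above the rest, and the other 3 of the 12 W group lay within the range of the 65 W group. Fgg had 5.33, 6.43, 5.89 and 5.32 at 12 W and 3.94, 5.23, 3.99 and 6.49 at 65 W. Fga had 3.92, 5.51, 4.18 and 4.45 at 12 W and 3.28, 2.94, 2.15 and 4.6 at 65 W. For each chain 65W-4 was the highest of the 65 W libraries and 12W-2 the highest of the 12 W libraries. Fgb averaged 13.7 ± 4.92 and 10.5 ± 3.20 (SD, n = 4 each), or 16.9 ± 7.25 and 13.5 ± 2.44 without Lars2. Fgg averaged 5.74 ± 0.532 and 4.91 ± 1.21, or 6.98 ± 1.05 and 6.40 ± 0.964 without Lars2. Fga averaged 4.52 ± 0.699 and 3.24 ± 1.02, or 5.50 ± 1.20 and 4.26 ± 1.17 without Lars2, so that the means of all 3 chains were lower at 65 W on both references while the groups overlapped. The log2 fold changes were -0.08 for Fgb (SE 0.26, adjusted p = 0.925, edgeR), 0.09 for Fgg (SE 0.19, adjusted p = 0.857, edgeR) and -0.17 for Fga (SE 0.24, adjusted p = 0.925, edgeR).

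Since the 3 chains are joined in equal numbers, the balance of their mRNAs within a library was compared, which does not depend on any library size. Fgb took 51.1, 63.6, 55.6 and 54.6% of the fibrinogen counts in 12W-1 to 12W-4 and 50, 56.9, 60 and 57.1% in 65W-1 to 65W-4. Fgg took 28.2, 19.6, 26.0 and 24.7% at 12 W and 27.3, 27.6, 26.0 and 25.1% at 65 W. Fga took 20.7, 16.8, 18.4 and 20.7% at 12 W and 22.7, 15.5, 14 and 17.8% at 65 W. An order of Fgb, Fgg and Fga held in all 8 libraries. The mean shares of Fgb were 56.2% ± 5.27 and 56.0% ± 4.25 (SD, n = 4 each). There were 22 fibrinogen counts in 65W-1 and 50 in 65W-3, against 116 to 445 in the others. The log2 ratio differed between the groups by -0.11 for Fga to Fgb (p = 0.686), by 0.14 for Fgg to Fgb (p = 0.600) and by -0.25 for Fga to Fgg (p = 0.171), each by a two-sided exact permutation test. Such a test of 4 libraries against 4 cannot give a p below 0.0286. After adjustment over 5 ratios, 1 ratio alone at that value would not fall under 0.05. Over the 5 ratios tested, with Ttr to Rbp4 and Hp to Hpx, the Benjamini-Hochberg adjusted p from these exact tests was 0.857 for 4 of them and 0.943 for Ttr to Rbp4. The overlap of Fga to Fgg rested on 65W-1, with 5 counts of Fga and 6 of Fgg. Without it the ratios were 0.71 to 0.857 at 12 W and 0.538 to 0.708 at 65 W. The difference was then -0.37 (exact permutation test, adjusted p = 0.143). With any 1 library left out, it ran from -0.37 to -0.16.

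**Figure D4:**
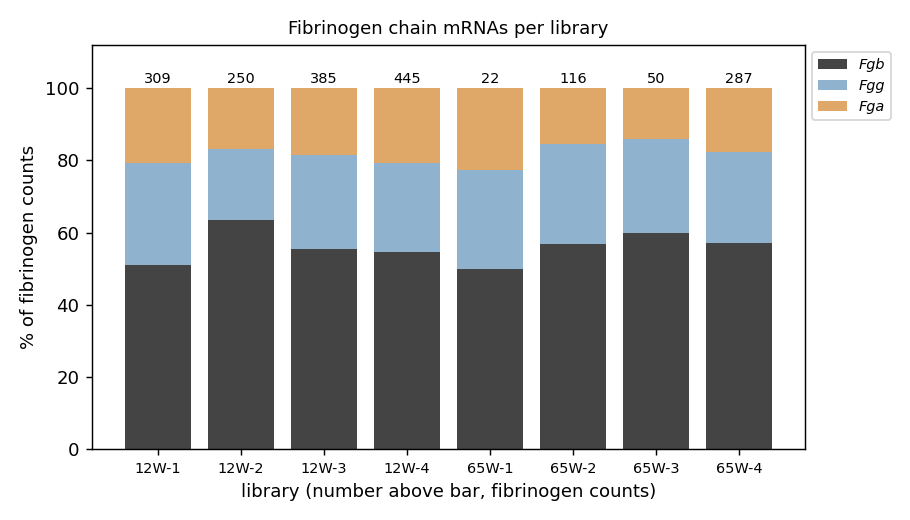
Share of each chain in the fibrinogen counts (stacked bars, % from 0) of the 8 libraries (x axis), with the number of fibrinogen counts above each bar. Fgb makes up 50 to 63.6% and Fga 14 to 22.7%, with both age groups across much of these ranges.

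The γ′ transcript Fgg-202 took 58 of 346 Fgg counts at 12 W and 23 of 123 at 65 W, or 16.8 and 18.7%. By library the share ran 19.5, 14.3, 16 and 16.4% at 12 W and 16.7, 15.6, 0 and 23.6% at 65 W. In 65W-3 the 0 was of 13 counts (95% Wilson interval up to 22.8%), which takes in the shares of 6 of the other 7 libraries. The αE transcript Fga-202 took 17 of 269 Fga counts at 12 W and 2 of 81 at 65 W, or 6.32 and 2.47%. Of the 17 counts 8 came from 12W-2, where the share was 19.0% (95% Wilson interval 9.98 to 33.3%), while the other 12 W libraries had 4.69, 5.63 and 2.17%. The 65 W libraries had 0, 5.56, 0 and 1.96%, on 5, 18, 7 and 51 Fga counts, and the upper ends of the intervals for the zeros were 43.4 and 35.4%. Both alternative ends printed above were therefore counted in each age group, on few counts, and the difference in their shares was not tested. Fgb was counted on its single annotated transcript, Fgb-201 (3810 nt).

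**Figure D5:**
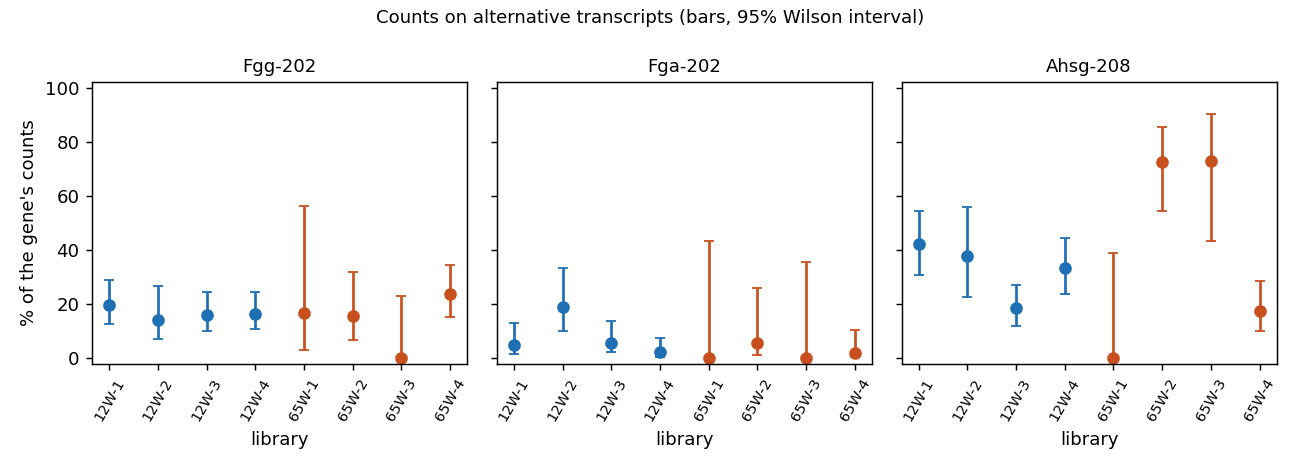
Share of a gene's counts on the alternative transcripts Fgg-202, Fga-202 and Ahsg-208 (% of the gene's counts, y axis) in each 12 W (blue) and 65 W (orange) library, with 95% Wilson intervals for counting error. Fgg-202 lies between 0 and 23.6%, whereas Ahsg-208 runs from 0 to 72.7% within the 65 W group.

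Levels of different genes were set side by side per length, as counts per 1000 nuclear counts and kilobase of the counted transcripts, over all 8 libraries. Alb was the highest with 43.8 ± 7.25 (SD, n = 8), followed by Ttr with 7.98 ± 2.23, Trf with 4.88 ± 1.12, Ahsg with 4.66 ± 1.28, Rbp4 with 4.15 ± 0.942 and Hpx with 4.08 ± 0.683. Fgb had 3.18 ± 1.11, Fgg 3.13 ± 0.568, Hp 1.98 ± 0.773 and Fga 1.84 ± 0.486. The steps from Alb to Ttr, from Ttr to Trf and from Fgg to Hp held in 8 of 8 libraries and that from Hpx to Fgb in 7. The other neighbours changed places between libraries, so that Trf, Ahsg, Rbp4 and Hpx could not be ranked beyond their spread, nor could Fgb against Fgg or Hp against Fga. On this scale Fgb lay above Fgg in 3 of 8 libraries only, with Fgb-201 of 3810 nt and Fgg-201 of 1695 nt. Without the division by length, some of these steps were reversed in the counts summed over all libraries. Trf then had 1167 against 846 for Ttr, and Fgb 1045 against 525 for Hpx. Fgb and Fgg, with 1045 and 469, kept the order of their means, with a wider gap. Each count was divided by the length of its own transcript. The 121 Ahsg counts on Ahsg-208 (559 nt) therefore weighed more than the 248 on Ahsg-201 (1484 nt). Ahsg ran from 2.65 in 65W-1 to 7.12 in 65W-2, and its place depends on how reads were divided between these transcripts. Reads from cDNA cover a transcript to an unknown extent, and the length correction, on which the order depends, was not tested.

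The genes most like albumin over the 8 libraries were sought by the SD of their log2 ratio to it, among the 98 other genes kept. The smallest SDs of genes outside the 10 were 0.16 for Apoe (apolipoprotein E), 0.19 for Apoh (β2-glycoprotein I) and 0.23 for Serpina1d (an α1-antitrypsin paralog), against a median of 0.56. Of the 10, Fgg with 0.19, Hpx with 0.19 and Ahsg with 0.25 followed albumin most closely, and Hp with 0.62 the least. For Fgb the smallest values belonged to the other 2 chains, 0.27 for Fgg and 0.33 for Fga, ahead of the other genes kept. Outside the 10 they were 0.37 for Serpina1b, 0.39 for Apoh and 0.42 for Wfdc21, with a median of 0.72. Genes with few counts have large SDs from counting alone, so the measure favours abundant genes. Serpina1b and Serpina1d belong to a family of near-identical genes, between which the counting could have divided reads.

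Other plasma proteins were taken from 6 lists of apolipoproteins, coagulation, complement, carrier, protease inhibitor and acute phase genes, with 92 genes in all. A row was present for 88 of them and 30 were kept in the fit, of which 2 were higher and 1 lower at 65 W at an adjusted p under 0.05. These 3 of 30 are near the background of 9.09% over all 99 genes. The median log2 fold change of the 30 was -0.15, against 0.04 over all 99 genes and -0.01 over the 10. The most counted were Apoe, Apoa2, Gc, Apoa1 and Cfb, of which 0 passed, with log2 fold changes of -0.28, -0.42, -0.34, 0.60 and -0.38 and adjusted p-values from edgeR of 0.501, 0.258, 0.451, 0.149 and 0.378. Like Trf, Apoe and Cfb had no overlap between the groups in counts per 1000 nuclear counts. Of the 3 that passed, the protease inhibitors Serpina3k and Serpina1c rose by 1.35 and 0.93 on the log2 scale (adjusted p = 0.00254 and 0.00689 from edgeR), and A1bg, a plasma glycoprotein, fell by 2.34 (adjusted p = 0.000669, edgeR). By list, 8 apolipoproteins were kept with a median of -0.21, 7 coagulation genes with 0.12, 3 complement genes with -0.06, 5 carriers with -0.34 (among them A1bg), 6 protease inhibitors with 0.15 (among them both serpins) and 4 acute phase genes with -0.40. The 4 acute phase genes, Hamp, Fgl1, Cp and C3, all had values below 0, and 0 passed, while the acute phase members of the 10 lay on both sides of 0. Only these 4 of 19 acute phase genes were kept. Fgl1, Cp and C3 also belong to the coagulation, carrier and complement lists, so their values enter 2 of the medians. A1bg had 3.83 to 5.51 counts per 1000 nuclear counts at 12 W and 0 to 1.08 at 65 W, with no overlap. Serpina3k had 2.65 to 4.07 at 12 W and 3.28 to 9.46 at 65 W, and the groups overlapped. Serpina3k and Serpina1c have close paralogs, so their counts are uncertain. The other 6 of the 9 genes that passed, named after their values were seen, were Mup3, Mup10, Mup11, Mup18 and Mup22, which were higher, and Cyp3a41a, which was lower. The Mup genes encode the major urinary proteins and are close paralogs too, so their counts are likewise uncertain. Their calls among the 9 may not be independent of each other. Mup genes, A1bg and Cyp3a41a are known for liver levels that differ between male and female mice. Since only the younger mice have a stated sex, age and sex cannot be told apart in any comparison of the age groups, the 10 genes included.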

How the data were processed

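RNA from gradient-purified liver mitochondria was sequenced as 8 Nanopore PCR-cDNA libraries, 4 per age group, placed in groups by the age in the titles, which also number the replicates. The authors deposited raw counts per Ensembl transcript from the Epi2Me Labs Differential Gene Expression workflow. The submitters' processing notes name minimap2, SAMtools and edgeR and the builds GRCm38 and mm10. Of 8688 transcripts, 8591 were matched to GENCODE M21 (GRCm38); the 97 others, with 0.0946% of the counts, were left out. Copies of mitochondrial genes were 16 nuclear transcripts with at least 80% identity over at least 50% of their length (BLAST 2.17.0).

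Counts were summed per gene. Library size was the sum of the other nuclear counts, with TMM factors in edgeR 4.0.16 (R 4.3.3). The fit covered the 99 genes kept by filterByExpr, with Benjamini-Hochberg adjustment and a threshold of 0.05. Standard errors come from the F statistic. For genes with low dispersion edgeR bounds p by a Poisson test, so the p of Fga is larger than its standard error implies. Ratios used a pseudocount of 0.5 and exact permutation over 70 assignments (scipy 1.17.1). DESeq2 1.42.0, limma 3.58.1, other scalings and filters, and leaving out libraries were alternatives. Wilson intervals (95%) cover counting error only, since PCR reads without molecular identifiers are not independent molecules, and p-values cover the spread between these libraries, which may be partly technical. The scripts were tested on simulated data. All pairs of libraries of the same age differed beyond the sampling noise of independent reads (chi-square test), an assumption that PCR reads do not meet.

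Genes named are the 10, the other plasma proteins past the threshold or with the 5 highest counts, and the 3 nearest to Alb and Fgb. The members and lists were chosen with earlier results of these data known. The study's normalization to a mitochondrial rRNA was not used here.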

Additional observations from a re-analysis of the deposited data

Results flagged for a closer look

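In 40 groups of 4 libraries tested, 2 had a library far from the other 3, a share that chance gives in about 1 of 20 such groups. For Ahsg, library 12W-3 had 5.78 counts per 1000 nuclear counts, against 3.63 to 3.92 in the other 12 W libraries. The ratio of Hp to Hpx counts in 65W-1 was 0.111, against 0.434 to 0.471 in the other 65 W libraries, and it rests on 1 count of Hp and 9 counts of Hpx.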

How the results depend on the processing

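Under all 20 alternatives 0 of the 10 genes passed, and under all 12 for the ratios 0 of 5 passed. No p under 0.05 was possible for the ratios within replicate number or without 65W-1 and 65W-3, so those runs decide nothing. In the main run and the others, 1 ratio alone could not pass either. Adjustment over the 5 ratios lifts the smallest possible p of 0.0286 above 0.05 unless several ratios reach it together. The 0 of 5 was thus close to fixed in advance and says little about the balance of the chains. The genes past the threshold were 4 without a filter on low counts, 2 with at least 10 counts in every library, which keeps 9 genes and 4 of the 10, and 5 to 11 with 1 library left out (5 without 65W-2), against 9. Those of the other plasma lists were 1 with at least 10 counts and 2 to 4 with 1 library left out, against 3.

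Alb, Trf, Fga and Hp kept values below 0 under every alternative run for them. The adjusted p of Trf ran from 0.0708 (edgeR, at least 10 counts in every library) to 0.676 (edgeR, replicate block). Its unadjusted p in edgeR was under 0.05 in that first run, without a filter, with RLE size factors and without a scaling factor. The same held without 65W-3, without 65W-1 and 65W-3, and without Lars2 or a scaling factor. The share of all genes at that p was not counted in these runs. The near-zero values of Ttr, Fgg, Hpx and Rbp4, in this order, became -0.11, -0.037, -0.085 and -0.064 with RLE size factors, -0.21, -0.13, -0.18 and -0.16 without a scaling factor, -0.10, -0.080, -0.094 and -0.066 with all genes in the fit, -0.11, -0.017, -0.082 and -0.069 with DESeq2, -0.76, -0.66, -0.72 and -0.72 without a filter (Ahsg -0.42) and -0.13, -0.061, -0.11 and -0.095 without Lars2 or a scaling factor. Ttr, Hpx and Rbp4 became -0.063, -0.033 and -0.0063 without Lars2 and -0.085, -0.10 and -0.18 without 65W-1 and 65W-3. Ttr became -0.0065 with limma-voom and -0.32 with at least 10 counts. In a fit of transcripts in place of summed genes, Ttr became -0.045, Hpx -0.027 and Ahsg -0.12. The Ttr to Rbp4 log2 ratio became 0.091 without 65W-1 and 65W-3. The cause of these changes was not tested. With 1 library left out, Ttr ran from -0.21 to 0.056, Fgb from -0.33 to 0.12, Fgg from -0.10 to 0.075, Hpx from -0.13 to 0.038, Rbp4 from -0.19 to 0.073, Fga to Fgb from -0.30 to 0.018, Fgg to Fgb from -0.023 to 0.25 and Ttr to Rbp4 from -0.28 to 0.30.

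Libraries with the same replicate number share only that number. Their deviations correlated at -0.15, -0.13, -0.26 and 0.17 over the 99 genes, and 2 of 8 libraries correlated best with their own number. With the replicate number as a block, 10 genes passed, of which 0 were among the 10 and 3 among the other plasma lists, and the log2 fold change of Trf was -0.28, with an adjusted p of 0.676 in edgeR. The ratios permuted within replicate number gave 0 of 5, but this was fixed in advance, since the few assignments allow no p under 0.05. The alternatives without Lars2 were chosen after seeing the data. Depth limits the values of 65W-1, where Hp had 1 count, Rbp4 4, Fga 5 and Fgg and Ahsg 6 each.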
